A study of Homo sapiens with 32 samples.

Results

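The 48 genes described here encode the proteins that remove, check and store mRNA in human cells. They were chosen by name and by known role from 62703 gene identifiers in the count tables. They fall into 7 groups by role: 7 factors of nonsense-mediated decay (NMD), 10 genes of the CCR4-NOT complex, 3 other deadenylases or deadenylase partners (PAN2, PAN3 and PARN), 8 decapping factors, 8 exonucleases and exosome subunits, 7 proteins of mRNA granules or poly(A) tails, and 5 genes of the microRNA pathway. All 48 passed the filter on low counts in every comparison.

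The cells were HEK293T, an established line derived from human embryonic kidney, grown without any further treatment. A clone was made for each of 3 knockouts, of IGF2BP1, IGF2BP2 or IGF2BP3, by transient transfection of plasmids that do not integrate and that carry 3 guide RNAs and GFP. Green single cells were sorted, and colonies were chosen by the level of the IGF2BP protein. The control received a guide RNA that targets no mammalian gene and was made in parallel, so it also went through transfection. Each knockout is 1 clone, and a difference between clones cannot be told apart from an effect of the knocked-out gene. IGF2BP1, IGF2BP2 and IGF2BP3 are related cytoplasmic proteins that bind mRNA and are known for slowing its decay. Poly(A) RNA was sequenced from whole cells (total RNA), from nuclei and from cytoplasm. Cytoplasmic RNA had 4 control, 2 IGF2BP1 knockout, 2 IGF2BP2 knockout and 4 IGF2BP3 knockout libraries, and total and nuclear RNA each had 4 control libraries and 2 of each knockout.

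Most cytoplasmic mRNAs are degraded in an ordered way. The poly(A) tail is shortened by PAN2-PAN3 and by CCR4-NOT, the cap is removed by DCP2 and its helpers, and the body is then digested from the 5′ end by XRN1 or from the 3′ end by the exosome. NMD recognises transcripts whose translation stops early: UPF1 is its central helicase, SMG1 is the kinase that phosphorylates it, and SMG6 cuts the mRNA. Decapping factors gather in P-bodies and untranslated mRNAs in stress granules, whose assembly involves G3BP1, G3BP2 and TIA1. XRN2 and EXOSC10 work mainly in the nucleus.

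PAN2, XRN2 and EXOSC10 are described below as examples of genes that rose or fell, and the start regions of these genes are shown for that reason. Each sequence runs from 250 bases before to 50 bases after the start annotated by RefSeq on GRCh38.p14, which gave such a region for 41 of the 48 genes. They lie at chr12:56333951-56334250 on the minus strand for PAN2, chr20:21303081-21303380 on the plus strand for XRN2 and chr1:11099820-11100119 on the minus strand for EXOSC10. Capitals mark a match to a searched motif.
PAN2: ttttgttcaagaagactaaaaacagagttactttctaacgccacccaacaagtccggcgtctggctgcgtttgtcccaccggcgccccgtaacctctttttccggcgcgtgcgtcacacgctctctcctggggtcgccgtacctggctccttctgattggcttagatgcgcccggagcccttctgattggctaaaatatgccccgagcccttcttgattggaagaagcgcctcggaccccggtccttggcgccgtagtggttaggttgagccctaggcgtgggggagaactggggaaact
XRN2: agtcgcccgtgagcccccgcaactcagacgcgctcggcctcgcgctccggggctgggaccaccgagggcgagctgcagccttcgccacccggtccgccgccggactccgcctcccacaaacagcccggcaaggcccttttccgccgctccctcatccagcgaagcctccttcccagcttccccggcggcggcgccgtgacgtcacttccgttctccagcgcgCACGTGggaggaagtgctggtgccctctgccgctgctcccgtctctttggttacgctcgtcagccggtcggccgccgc
EXOSC10: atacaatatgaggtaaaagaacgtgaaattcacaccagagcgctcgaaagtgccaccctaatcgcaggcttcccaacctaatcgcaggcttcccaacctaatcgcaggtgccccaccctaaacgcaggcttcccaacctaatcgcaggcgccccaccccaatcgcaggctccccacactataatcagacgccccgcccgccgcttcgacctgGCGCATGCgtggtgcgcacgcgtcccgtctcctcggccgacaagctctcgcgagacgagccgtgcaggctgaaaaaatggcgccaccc
The capitals in XRN2 are the E-box CACGTG, 28 bases before the start, and those in EXOSC10 are the NRF1 core GCATGCGC read on the other strand, 38 bases before it. PAN2 held none of the 4 motifs searched on both strands. The ETS core CCGGAAG was in 9 of 41 member promoters (22%), against 10.7% of 27305 promoters of the same length. The NRF1 core was in 3 (7.32%, against 3.27%), the YY1 core AAGATGGCG in 2 (4.88%, against 1.85%), and the E-box in 3 (7.32%, against 7.43%). A match is a description of the letters and not a binding site.

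Cytoplasmic libraries held 16720159 to 26119480 counts, total RNA libraries 16179939 to 24690494 and nuclear libraries 13689067 to 26093403. In the cytoplasm the targeted genes fell in their own clones. IGF2BP1 was at 22.42 and 22.12 CPM (normalised counts scaled to library size) in its knockout against 357.6 to 435.2 in the control, IGF2BP2 at 34.32 and 35.95 against 84.32 to 89.42, and IGF2BP3 at 25.1 to 30.6 against 68.37 to 74.85. IGF2BP1 mRNA was also lower in the IGF2BP2 knockout (230.8 and 235.8 CPM) and in the IGF2BP3 knockout (229.2 to 291 CPM). All 3 targeted genes were called lower in the cytoplasm of each of these 2 clones (medians -0.63 and -0.65). In the IGF2BP1 clone 1 of the 3 was called lower and 1 higher. All 6 genes associated with HEK cells had counts. Their summed level in cytoplasmic libraries was 1124 to 1349 CPM in the control, 740.7 to 762.1 in the IGF2BP1, 1048 to 1071 in the IGF2BP2 and 671.8 to 700.2 in the IGF2BP3 knockout, and its part in the results was not tested. The 6 genes did not move together. In the cytoplasm 1 was called higher and 4 lower in the IGF2BP1 clone, and 3 higher and 3 lower in each of the other clones. A list of blood cell markers summed to at most 0.93 CPM. Total RNA replicate 2 and nuclear RNA replicate 1 of the IGF2BP1 knockout held identical counts at all identifiers, so 1 of them does not represent its label. Cytoplasmic RNA is therefore given before the other kinds for the IGF2BP1 knockout, and values of its total and nuclear RNA without that library are given beside those with it for the genes that results turn on. The labels do not say whether replicates came from separate cultures, so p-values measure only the spread between these libraries. In bulk RNA, fewer cells expressing a gene and less RNA per cell cannot be told apart.

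All libraries of an RNA kind entered 1 edgeR quasi-likelihood fit with a term for each knockout and for the labelled batch. Calls required a p under 0.05 after Benjamini-Hochberg adjustment over all genes tested, and differences are log2 of the first group over the second. The control was in batches 1 to 4, the IGF2BP1 knockout in 1 and 2, and the other knockouts in 3 and 4. The remaining cytoplasmic IGF2BP3 knockout libraries formed batch 5, without a control. They enter the spread but leave the fold change to batches 3 and 4. Sizes between clones depend on scaling: the normalisation factors (TMM) were 0.922 to 0.932 in the cytoplasmic controls and 1.08 to 1.12 in the IGF2BP2 and IGF2BP3 knockouts of batches 3 and 4. Upper quartile scaling raised the median over all genes from 0.01 to 0.16 in the IGF2BP2 knockout and from 0.03 to 0.19 in the IGF2BP3 knockout. It raised the median over the 48 genes from -0.18 to -0.04 and from -0.25 to -0.08. Library totals with no scaling factor, an alternative chosen after seeing the data, moved the median over all genes to 0.24 and 0.29 and that over the 48 genes to 0.04 and 0.02. The direction of small cytoplasmic differences in these clones therefore depends on scaling. The median of the 48 genes was below that of all genes under each of these 3 scalings. A scaling shifts all genes of a library by about the same amount, so this gap could not respond to it and is no check. All genes tested include weakly expressed ones, whereas the 48 lay at percentiles 65.7 to 99.8 of the level in total control RNA.

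Levels were compared between genes by reads scaled to exon length and library size (RPKM). In total control RNA (n = 4) PABPC1, the main cytoplasmic poly(A)-binding protein, was highest at 300.1 ± 38.4 (SD). XRN2 followed at 59.7 ± 1.32, SMG5, an NMD factor that binds phosphorylated UPF1, at 53.2 ± 5.37, CNOT1, the scaffold of CCR4-NOT, at 51.9 ± 1.27, and EXOSC10 at 34.5 ± 1.11. The spread of SMG5 overlapped with those of its neighbours XRN2 and CNOT1. The lowest were DIS3L2, an exonuclease for uridylated RNA, at 2.62 ± 0.176, CNOT4, a ubiquitin ligase linked to CCR4-NOT, at 4.38 ± 0.305, and DCP1B, a decapping coactivator, at 4.82 ± 0.219. By the deposited FPKM, whose length term follows the whole gene with its introns, the highest were PABPC1, PABPC4 and EXOSC2 and the lowest DIS3L2, CNOT4 and PARN.

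Reads of 50 bases can be shared between similar genes. Of all 50-base words, 17.1% in UPF3A, 16.2% in EDC4, 14.4% in SMG1 and 7.45% in PABPC1 also occur in another annotated gene (mainly UPF3AP2, AC040162.3, SMG1P1 and PABPC3), so these counts are less certain. EDC4 overlaps AC040162.3 on the same strand. SMG6 (2678 of 10554 exon bases), EXOSC10 (2357 of 6003), CNOT1 (1219 of 10852), DIS3 (1218 of 10835) and LSM1 (650 of 1690) are among those that overlap genes on the opposite strand, and the use of strand in counting is not given in the sources used here. None of 12 paralog pairs among the 48, such as XRN1 and XRN2 or PABPC1 and PABPC4, shared a 50-base word.

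In control cells the mRNAs of these genes were not spread alike between nucleus and cytoplasm. Of the 48, 18 were relatively higher in nuclear and 19 in cytoplasmic RNA, where 65.9% of all genes were called (32.6% and 33.3%). The exonuclease and exosome group leaned to nuclear RNA, with 6 higher there and 1 lower (median 0.38), and NMD factors had 4 higher and 1 lower (median 0.30). CCR4-NOT had none higher and 8 lower (median -0.33), and decapping factors had 1 higher and 6 lower (median -0.29). The median over all genes was -0.02. These are relative levels within libraries scaled separately and do not give absolute shares of a message.

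PAN2, the catalytic subunit of PAN2-PAN3, stood farthest to the nuclear side at 1.98 ± 0.07 (log2, SE). It was followed by SMG1 (1.02), XRN1, the cytoplasmic 5′ exonuclease (0.88), TIA1, a stress granule protein (0.66), and DIS3L2 (0.64). Farthest to the cytoplasmic side were CNOT6, a deadenylase of CCR4-NOT (-0.89), CNOT7, another (-0.82), PATL1, a decapping activator (-0.72), LSM1, part of the ring that binds short poly(A) tails (-0.61), and ELAVL1, which binds AU-rich sequences (-0.60). All 10 of these were called.

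**Figure D1:**
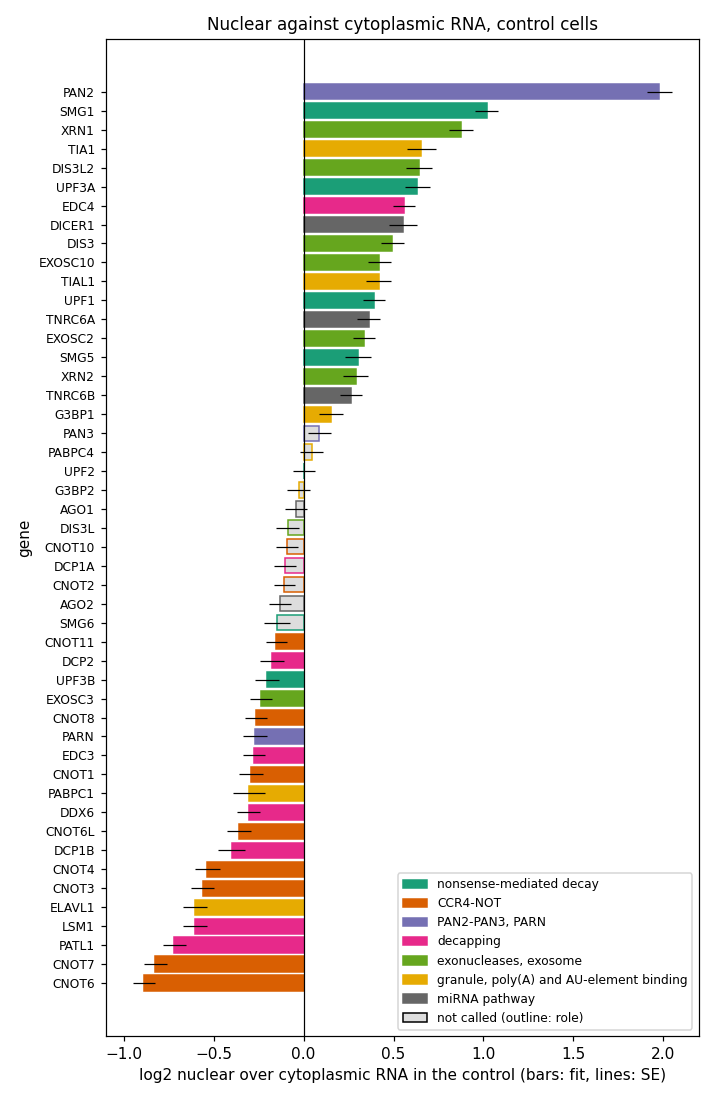
Log2 ratio of nuclear to cytoplasmic RNA in control cells for each of the 48 genes (x axis; bars start at 0, error bars are the SE of the edgeR fit, grey fill marks genes that were not called). PAN2 stands alone at 1.98, and CNOT6 has the lowest value at -0.89.

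The IGF2BP1 knockout was compared with the control to see how loss of IGF2BP1 went with the levels of decay factors. In the cytoplasm 28 of the 48 genes were called, 20 higher and 8 lower, where 44.4% of all genes were called (22.5% higher, 21.9% lower). The largest rises were of XRN1, DCP1A, DIS3, SMG1, PAN2, CNOT4 and CNOT1, and the largest fall was of SMG6. The median over the 48 was 0.06, against 0.01 over all genes. With library totals alone 31 were called, 26 higher and 5 lower. All libraries of the clone lay above all 4 control libraries for 21 genes and below them for 7, where 27% and 24.9% of all genes did so.

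By role, CCR4-NOT had 5 of 10 higher and none lower, decapping factors 4 of 8 higher and none lower, PAN2 and PAN3 rose, and in the microRNA group DICER1, which cuts microRNA precursors, and TNRC6A, a scaffold of silencing, rose. NMD factors had 4 higher and 2 lower, exonucleases and exosome subunits 2 higher and 3 lower, and granule proteins 1 higher and 3 lower. With library totals alone granule proteins had 3 higher and 1 lower, and their median turned from -0.05 to 0.02. Exonucleases and exosome subunits then had 3 in each direction (median 0.07). Without the batch term granule proteins had 1 higher and 0 lower, and CCR4-NOT and decapping factors 3 higher each. No gene of the microRNA group was called without it.

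XRN1 was at 56.96 and 53.65 CPM in the knockout and at 34.58, 36.51, 35.75 and 34.3 in the control libraries of batches 1 to 4, a difference of 0.64 ± 0.06 (edgeR, adjusted p = 1.89e-10). The groups did not overlap. In nuclear RNA XRN1 rose by 0.24, and in total RNA it differed by -0.29 and was not called. Without the identical library these were 0.27 and -0.03, neither called (edgeR, adjusted p = 0.0723 and 0.831). DCP1A, a coactivator of the decapping enzyme, was at 110.5 and 109.6 CPM against 74.9, 74.02, 71.44 and 74.67 (0.56). DIS3, the catalytic exosome subunit, was at 229 and 217.2 CPM against 163.6, 154.1, 150.4 and 131.7 (0.49). Both were above every control library.

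SMG1 was at 209.6 and 202.5 CPM against 159.3, 146.4, 101.4 and 97.6, a difference of 0.43, and its control libraries themselves differed between batches 1 to 2 and 3 to 4. CNOT1 was at 644.6 and 631.5 CPM against 495, 471.6, 417.9 and 412 (0.40). CNOT4 rose by the same amount, 0.40. UPF1 was at 214 and 209.6 CPM against 173.1, 167.7, 151.1 and 153.9 (0.31), above all control libraries.

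SMG6, the endonuclease of NMD, was at 42.13 and 40.52 CPM in the IGF2BP1 knockout, below 61.71, 61.28, 56.97 and 58.29 in the control. Its difference was -0.57 ± 0.06 in cytoplasmic (edgeR, adjusted p = 1.68e-10), -0.93 in total and -0.76 in nuclear RNA, all called, and without the identical library -0.78 and -0.65, both called. In the other knockouts cytoplasmic SMG6 was at 59.07 and 60.82 CPM (IGF2BP2) and at 61.55 to 68.98 CPM (IGF2BP3). SMG6 lies at chr17:2059839-2303771 on the minus strand.

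**Figure D2:**
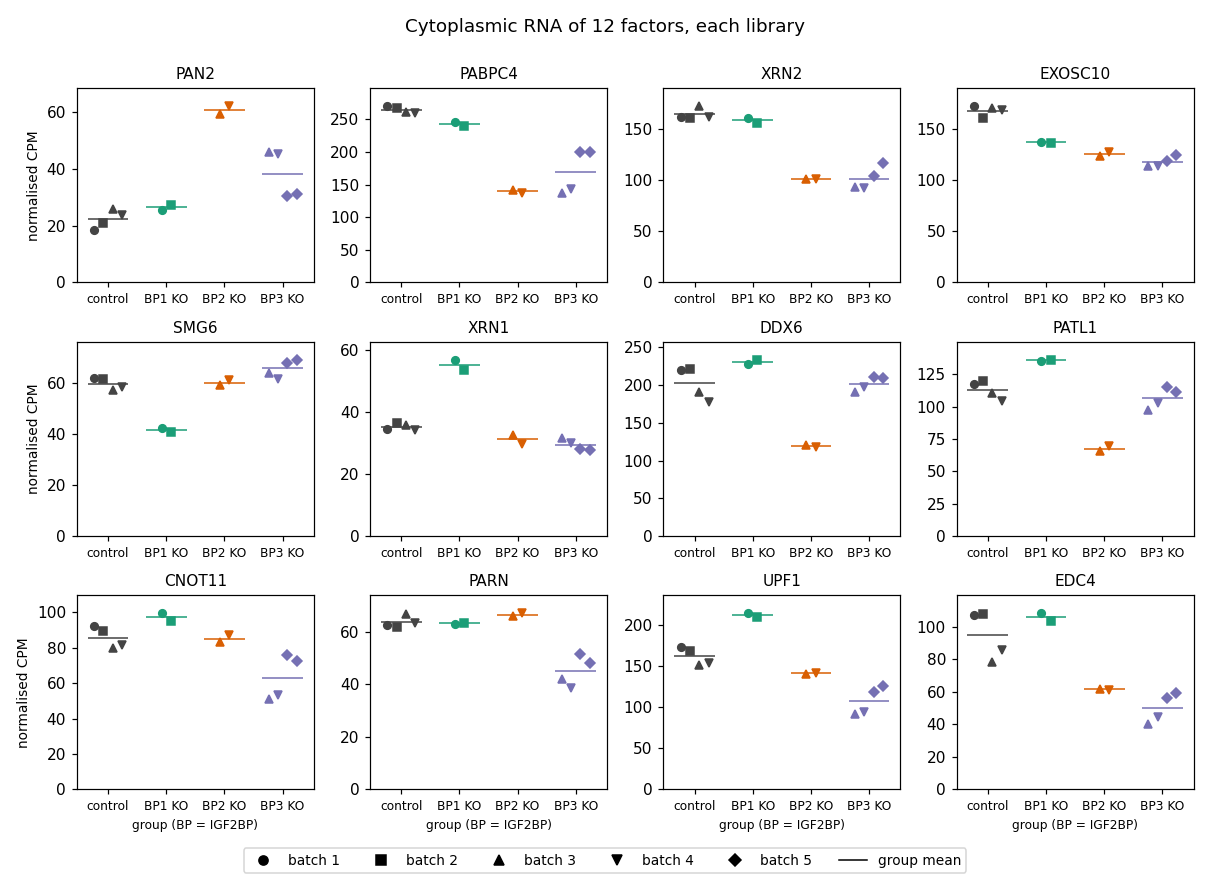
Normalised CPM in each cytoplasmic library (y axis, linear and from 0) for 12 genes, by group (x axis); the marker shape gives the batch and the line the group mean. SMG6 is low in the IGF2BP1 knockout, at 42.13 and 40.52, and PAN2 is highest in the IGF2BP2 knockout, at 59.34 and 62.09.

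Total and nuclear RNA of the IGF2BP1 knockout gave fewer calls. In total RNA 12 genes were called (2 higher, 10 lower), where 24.2% of all genes were called (10.7% higher, 13.5% lower), and without the identical library also 12 (4 higher, 8 lower; 20.8% of genes). In nuclear RNA 9 were called (5 higher, 4 lower), against 25.7% of all genes (12.7% higher, 13% lower), and 11 without it (6 higher, 5 lower; 23.3%). Leaving out 1 library at a time moved these counts between 6 and 28 in total and between 5 and 11 in nuclear RNA. DIS3 was higher, and SMG6, EXOSC10 and TIAL1, a relative of TIA1, were lower in all 3 RNA kinds, and the total and nuclear calls of these 4 were also made without the identical library. Cytoplasmic TIAL1 was not called with library totals alone (-0.09). PATL1 was higher in cytoplasmic RNA (0.19) and lower in total RNA (-0.47), but without the identical library its total RNA differed by -0.08 and was not called. Of all genes, 4.22% were called higher and 6.6% lower in all 3 kinds. CNOT6 shows what the identical library does: its total RNA libraries of the knockout read 147.8 and 77.24 CPM, the second being the identical one, against 144.9 to 167.6 in total and 85.98 to 94.5 in nuclear control RNA. Mitochondrial RNA, summed over 4 genes, was at 9171 and 12290 CPM in the total RNA libraries of the knockout. In the control this sum was 12270 to 15320 in total and 8021 to 9797 in nuclear RNA. Which of the 2 labels is wrong was not tested.

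In the cytoplasm of the IGF2BP2 knockout 34 of the 48 were called, 5 higher and 29 lower, where 64.2% of all genes were called (30.9% higher, 33.2% lower). PAN2 rose most, and PABPC4, UPF2, XRN2, PATL1, DDX6, EXOSC3 and CNOT6 fell most. With upper quartile scaling 33 were called, 13 higher and 20 lower, and with library totals alone 36, 18 in each direction. Both scalings also raised the median over all genes by about as much as that of the 48, as given above. The median of the 48 was -0.18, against 0.01 over all genes. Set against the controls of batches 3 and 4, the 2 libraries had medians of -0.23 and -0.20 over the 48. Over 14300 genes at 1 CPM or more in those controls they were -0.08 and -0.085. All libraries of the clone lay below the 4 control libraries for 30 genes and above them for 5, where 34.5% and 35.3% of all genes did so.

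Granule proteins had 6 of 7 lower and 1 higher, exonucleases and exosome subunits 6 of 8 lower, CCR4-NOT 6 of 10 lower, decapping factors 4 of 8 lower and the microRNA group 4 of 5 lower, with none higher in these last 4 groups. NMD factors had 3 higher and 2 lower. With upper quartile scaling CCR4-NOT had 3 higher and 4 lower and its median turned from -0.14 to 0.005, decapping factors had 2 higher and 3 lower, and NMD factors 5 higher and 1 lower. Granule proteins (4 lower, 1 higher), exonucleases and exosome (5 lower) and the microRNA group (2 lower) kept the sign of their median. With library totals alone the medians of CCR4-NOT (0.08) and decapping factors (0.05) were positive, granule proteins had 4 lower and 1 higher (-0.08), and exonucleases and exosome had 3 lower and 1 higher (-0.06).

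PAN2 was at 59.34 and 62.09 CPM in the IGF2BP2 knockout against 18.57, 20.86, 25.96 and 23.75 in the control, a difference of 1.29 ± 0.07 (edgeR, adjusted p = 4.31e-18). It was the only one of the 48 that was called higher in the cytoplasm of all 3 knockouts: the IGF2BP1 knockout had 25.43 and 27.33 CPM (0.42), of which 25.43 lay inside the range of the control, and the IGF2BP3 knockout 45.82, 45.15, 30.42 and 31.28 (0.87). In total RNA of the IGF2BP2 knockout it was at 147.5 and 154.6 CPM, against 77.1 to 81.7 in the control (0.93). The difference was smaller in nuclear RNA, at 0.32 (called).

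PAN2 is also the most nuclear of these messages. The next most nuclear, SMG1, XRN1, TIA1 and DIS3L2, were called lower in the cytoplasm of the IGF2BP3 knockout with TMM scaling. In that of the IGF2BP2 knockout the differences of SMG1 and TIA1 were positive and those of XRN1 and DIS3L2 negative. A list of 4 nuclear RNAs, of which MEG3 was at or near 0, summed to 137.7 to 161.6 CPM in cytoplasmic control libraries, 175.3 to 177.8 in the IGF2BP1 knockout, 591.9 to 609.1 in the IGF2BP2 knockout and 275.2 to 702.8 in the IGF2BP3 knockout. In total RNA, which was not fractionated, the sum was 265.7 to 324.5 CPM in the control, 723.2 to 742 in the IGF2BP2 knockout and 1069 to 1310 in the IGF2BP3 knockout. In nuclear RNA it was 284 to 374.8, 484.7 to 527.6 and 905.2 to 1041 CPM in the same order. The part of nuclear RNA in the cytoplasmic PAN2 result was not tested. PAN2 lies at chr12:56316223-56334053 on the minus strand.

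PABPC4, a relative of PABPC1 that also binds poly(A), was at 142.1 and 136.8 CPM in the IGF2BP2 knockout and at 270.3, 267.5, 261.7 and 259.3 in the control (-0.90 ± 0.04, edgeR, adjusted p = 6.92e-20). The IGF2BP3 knockout had 137.1 and 142.6 CPM in batches 3 and 4 and 199.4 and 199.9 in batch 5 (-0.90). All libraries of both clones lay below the control. The fall was of like size in total RNA (-0.89 and -0.77) and in nuclear RNA (-0.72 and -0.69). PABPC4 lies at chr1:39560816-39576790 on the minus strand.

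XRN2, the nuclear 5′ exonuclease, was at 101.6 and 101.3 CPM in the IGF2BP2 knockout against 161.6, 160.8, 172.5 and 162.1 in the control (-0.72 ± 0.05, edgeR, adjusted p = 1.92e-15). It was at 93.03, 92.43, 104.5 and 116.3 CPM in the IGF2BP3 knockout (-0.85) and at 161.1 and 155.8 in the IGF2BP1 knockout (-0.03, not called). It fell in total RNA by 0.54 and 0.64 on the log2 scale and in nuclear RNA by 0.38 and 0.49. XRN1, its cytoplasmic counterpart, was at 32.61 and 29.69 CPM in the IGF2BP2 knockout, a difference of -0.17 that turned to 0.05 with library totals alone.

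DDX6, the helicase that joins deadenylation to decapping, was at 119.9 and 117.6 CPM in the IGF2BP2 knockout, below 219.8, 221.4, 191.2 and 177.9 in the control (-0.64, edgeR, adjusted p = 4.54e-15). PATL1, which binds DDX6 and the LSM ring, was at 65.34 and 69.41 CPM against 117.6, 120, 110.8 and 104 (-0.67). UPF2, the bridge between UPF1 and the exon junction complex, was at 37.21 and 39.25 CPM against 76.89, 73.77, 66.9 and 59.64 (-0.73). In these 3 genes the clone lay below all control libraries.

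CNOT6 was at 99.44 and 105.3 CPM against 167.1, 164.6, 150.9 and 155.2 (-0.58), while its paralog CNOT6L differed by 0.08 and was not called. Across RNA kinds, UPF3B, an NMD factor that binds the exon junction complex, and PAN2 were higher in all 3. UPF2, CNOT10, PATL1, XRN2, EXOSC3, EXOSC10, TIAL1 and PABPC4 were lower in all 3, where 15.8% of all genes were higher and 16.2% lower, and with library totals alone cytoplasmic TIAL1 was not called (-0.01). In total RNA 14 were called (3 higher, 11 lower), against 47% of all genes (23.3% higher, 23.7% lower), and 29 in the fit without the identical library. In nuclear RNA 28 were called (9 higher, 19 lower), against 49.7% of all genes (24.8% higher, 24.9% lower), and 30 in the fit without it. Leaving out 1 library at a time moved these counts between 5 and 30 in total and between 12 and 30 in nuclear RNA.

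The IGF2BP3 knockout had the most genes called in the cytoplasm, 37 of 48, of which 5 were higher and 32 lower, where 64.7% of all genes were called (31.5% higher, 33.2% lower). EDC4, PABPC4, XRN2, CNOT1, UPF1, PARN and ELAVL1 fell most, and PAN2 rose. With upper quartile scaling 36 were called, 12 higher and 24 lower, and with library totals alone 37, 18 higher and 19 lower. As in the IGF2BP2 knockout, both scalings raised the median over all genes by about as much as that of the 48. With TMM the median of the 48 was -0.25, against 0.03 over all genes. Set against the controls of batches 3 and 4, the libraries of these batches had medians of -0.27 and -0.25 over the 48. Over 14300 genes at 1 CPM or more in those controls they were -0.08 and -0.09. Counting all 4 libraries, those of batch 5 included, 20 genes lay below every control library and 2 above, where 22.3% and 21.2% of all genes did so.

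All 7 granule proteins were lower (median -0.53), as were 6 of 8 exonucleases and exosome subunits (median -0.45) and 7 of 10 CCR4-NOT genes (median -0.22). NMD factors had 1 higher and 4 lower, decapping factors 2 higher and 3 lower, and the microRNA group 1 higher and 3 lower. With upper quartile scaling 6 granule proteins, 5 exonuclease or exosome genes and 5 CCR4-NOT genes were lower, and the medians of NMD (0.05) and decapping factors (0.15) turned positive. With library totals alone 4 granule proteins (median -0.27) and 5 exonuclease or exosome genes (-0.18) were lower, CCR4-NOT had 4 in each direction (0.05), and the microRNA median (0.04) turned positive as well.

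EDC4, the scaffold of the decapping complex, was at 40.5 and 44.63 CPM in batches 3 and 4 and at 56.38 and 59.14 in batch 5, all below 107.5, 107.9, 78.39 and 85.81 in the control (-0.95 ± 0.05, edgeR, adjusted p = 7.08e-17). It also fell in total (-0.51) and nuclear RNA (-0.48), and the IGF2BP2 knockout had 62.07 and 61.07 CPM (-0.41). EDC3, another decapping enhancer, rose instead, by 0.18 in cytoplasmic, 0.27 in total and 0.32 in nuclear RNA. EDC4 lies at chr16:67873023-67884503 on the plus strand.

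UPF1 was at 92.03, 94.49, 118 and 125.2 CPM in the IGF2BP3 knockout, below all control libraries (-0.71). The difference was -0.39 in total and -0.26 in nuclear RNA, both called. SMG1 was at 71.97, 68.32, 86.06 and 91.75 CPM, also below the control (-0.51), and fell by 0.77 on the log2 scale in nuclear RNA. UPF1 lies at chr19:18831938-18868236 on the plus strand.

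CNOT1 was at 228.8, 233.5, 246.8 and 245.9 CPM, against 495, 471.6, 417.9 and 412 in the control (-0.84). CNOT11, a smaller subunit of the same complex, was at 50.91, 53.3, 75.91 and 72.21 CPM against 92.33, 89.42, 79.62 and 81.27 (-0.63 ± 0.05, edgeR, adjusted p = 4.72e-13). PARN, a deadenylase that also trims small RNAs, was at 41.85, 38.55, 51.37 and 48.02 CPM against 62.75, 61.98, 66.84 and 63.47 (-0.70, edgeR, adjusted p = 6.27e-13). In these 3 genes every library of the knockout lay below the control.

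ELAVL1 was at 142.1, 141.2, 192.6 and 183.5 CPM against 265.7, 262.3, 227.1 and 218.2 in the control (-0.65). AGO2, the slicing Argonaute, was at 86.24, 84.21, 99.45 and 96.98 CPM against 165.5, 158.7, 127 and 133.4 (-0.61), while AGO1 differed by 0.03 and was not called (0.30 and called with library totals alone). G3BP1 was at 186 and 184.1 CPM in batches 3 and 4 (-0.54), below the control, and at 261.3 and 270.4 in batch 5, where the control range was 263.3 to 322.8.

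In all 3 RNA kinds of the IGF2BP3 knockout, PAN2 and EDC3 were higher and 17 genes lower: UPF1, SMG1, CNOT1, CNOT10, CNOT11, PARN, EDC4, XRN2, EXOSC3, EXOSC10, G3BP1, TIAL1, ELAVL1, PABPC1, PABPC4, AGO2 and TNRC6A. Cytoplasmic TIAL1 turned to 0.08 and was not called with library totals alone. Of all genes, 17.1% were higher and 18% lower in all 3 kinds. In total RNA 22 were called (4 higher, 18 lower), against 46.9% of all genes (23.5% higher, 23.4% lower), and 33 in the fit without the identical library. In nuclear RNA 31 were called (5 higher, 26 lower), against 50.4% of all genes (25.1% higher, 25.3% lower), and 33 in the fit without it. Leaving out 1 library at a time moved these counts between 13 and 33 in total and between 17 and 33 in nuclear RNA.

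**Figure D3:**
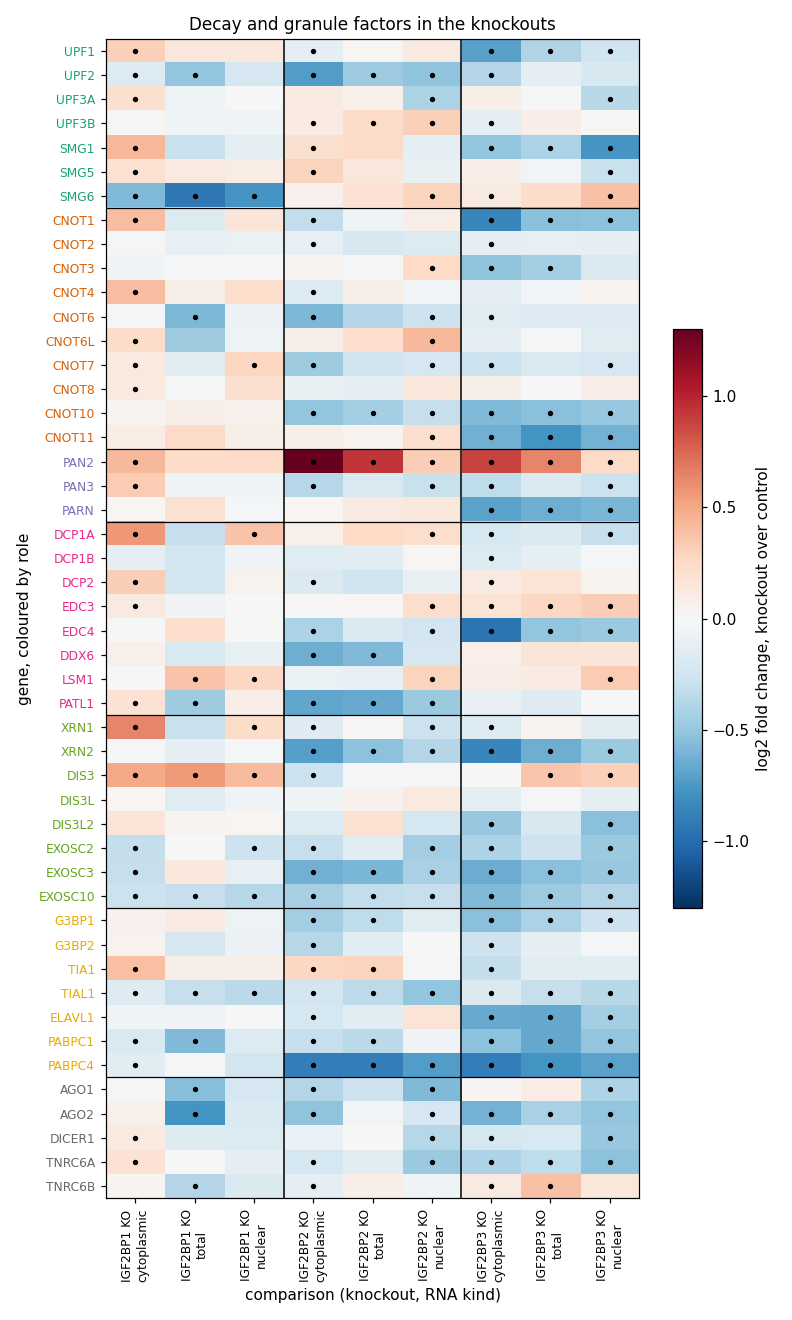
Log2 difference from the control (colour) of the 48 genes (rows, by role) in each knockout and RNA kind (columns); black dots mark genes called at an adjusted p under 0.05. PAN2 is higher in all 9 columns, with dots in 7, and EXOSC10 and TIAL1 are lower with dots in all 9, of which cytoplasmic TIAL1 in the IGF2BP3 knockout turned to 0.08 with library totals alone.

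The cytoplasmic IGF2BP3 libraries of batch 5 differed from those of batches 3 and 4. Of the 48 genes 39 were called, 36 higher and 3 lower in batch 5, where 55% of all genes were called (28.5% higher, 26.4% lower). With upper quartile scaling 28 were called, 21 higher and 7 lower, and with library totals alone also 28, 19 higher and 9 lower. EXOSC3, an exosome cap subunit, was at 35.14 and 34.25 CPM in batches 3 and 4 and at 60.1 and 66.41 in batch 5, against 60.92, 59.9, 51.65 and 57.11 in the control, so the batch 5 libraries were not below the control.

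Set against all controls without a batch term, the batch 5 libraries alone gave 26 called genes, 8 higher and 18 lower, with a median of -0.11, where 48% of all genes were called. Batch 5 held no control, so its batch and the state of the clone cannot be told apart.

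**Figure D4:**
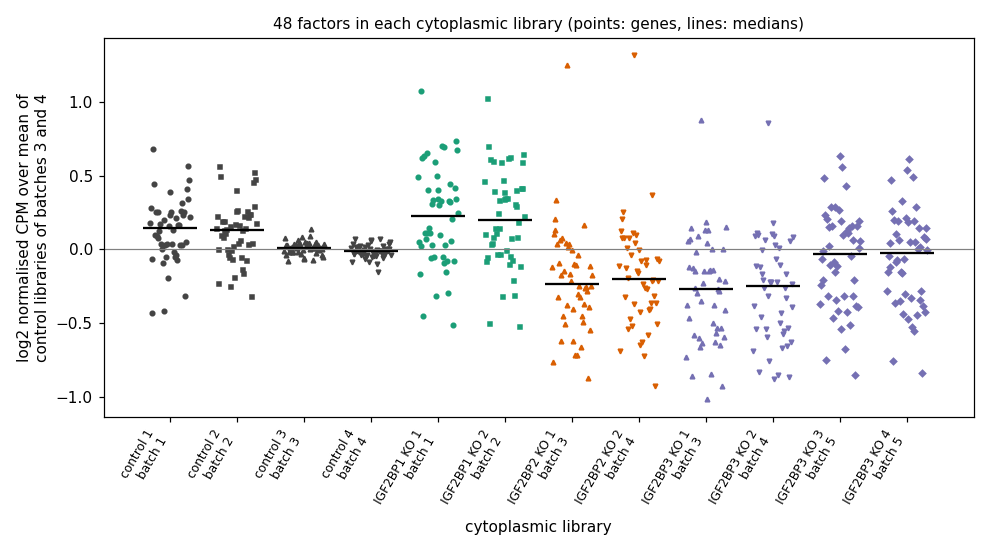
Each point is 1 of the 48 genes in 1 cytoplasmic library (x axis, labelled by group and batch); the y axis is log2 of normalised CPM over the mean of the control libraries of batches 3 and 4, and lines are medians. The medians of the IGF2BP3 knockout are -0.27 and -0.25 in batches 3 and 4 and -0.03 and -0.02 in batch 5, and those of the control are 0.15, 0.13, 0.01 and -0.01. With library totals alone those of the IGF2BP3 knockout are 0.002, 0.02, 0.06 and 0.07. Over 14300 genes at 1 CPM or more in the control of batches 3 and 4, its medians are -0.08, -0.09, -0.04 and -0.04. With library totals alone these are 0.19, 0.18, 0.054 and 0.055.

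Loss of IGF2BP3 and loss of IGF2BP2 were compared directly, since both clones were made into libraries in batches 3 and 4. In the cytoplasm 35 of the 48 differed, 13 higher and 22 lower in the IGF2BP3 knockout, where 62.7% of all genes were called (31.3% higher, 31.5% lower). By role, decapping factors had 5 higher and 2 lower, CCR4-NOT 3 and 4, NMD 1 and 4, exonucleases and exosome 1 and 4, and granule proteins 1 and 4. In total RNA 21 differed (7 higher, 14 lower), against 43.3% of all genes (21.8% higher, 21.5% lower). In nuclear RNA 19 differed (4 higher, 15 lower), against 48.2% of all genes (24.1% in each direction). When 1 library at a time was left out, these counts moved between 5 and 30 in total and between 11 and 22 in nuclear RNA.

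In the cytoplasm 19 of the 35 direct calls were kept under every alternative, in total RNA 5 of 21 and in nuclear RNA 8 of 19. A group of 15 genes differed the same way in all 3 RNA kinds, 4 of them higher and 11 lower, where 18.3% of all genes were higher and 18.6% lower. UPF2, DDX6, PATL1 and DIS3 were higher in the IGF2BP3 knockout. UPF1, SMG1, CNOT1, CNOT3, CNOT11, PARN, DCP1A, EDC4, DIS3L2, ELAVL1 and PABPC1 were lower.

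DDX6 had 190.5 and 196.8 CPM in the IGF2BP3 knockout in batches 3 and 4 and 210.9 and 209.9 in batch 5, against 119.9 and 117.6 in the IGF2BP2 knockout. The difference was 0.71 ± 0.04 in cytoplasmic RNA (edgeR, adjusted p = 1.49e-16), 0.74 in total and 0.37 in nuclear RNA. The IGF2BP3 clone did not pass the test against the control for DDX6 (0.07), but did with library totals alone (0.34). PATL1 differed by 0.57 and UPF2 by 0.35 in cytoplasmic RNA.

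CNOT11 went the other way, with 82.98 and 87.04 CPM in the IGF2BP2 knockout. It was lower in the IGF2BP3 clone by -0.71 ± 0.05 in cytoplasmic, -0.83 in total and -0.83 in nuclear RNA. PARN was at 65.91 and 67.12 CPM in the IGF2BP2 knockout and differed by -0.73, -0.75 and -0.73. SMG1 had 114.6 and 114.9 CPM there and differed by -0.71 in the cytoplasm, and UPF1 had 140.5 and 141.1 CPM and differed by -0.59.

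TIA1 was at 79.67 and 91.65 CPM in the IGF2BP2 knockout and at 58.47, 56.46, 56.94 and 55.96 in the IGF2BP3 knockout, with the control between them at 72.45, 72.68, 70.02 and 72.08. It was called higher in the IGF2BP2 knockout (0.27) and lower in the IGF2BP3 knockout (-0.31; -0.04 and not called with library totals alone), and the direct difference was -0.57. The IGF2BP1 knockout had 96.88 and 93.69 CPM (0.39).

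**Figure D5:**
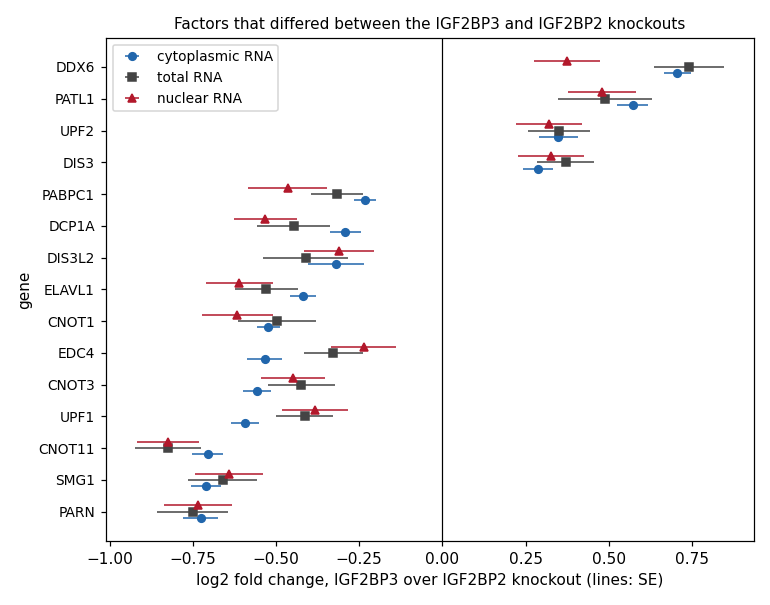
Log2 of the IGF2BP3 knockout over the IGF2BP2 knockout (x axis, error bars are SE) in cytoplasmic, total and nuclear RNA for the 15 genes called in the same direction in all 3. DDX6 (0.71 in the cytoplasm) is highest and CNOT11 and PARN (-0.71 and -0.73) are among the lowest.

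Since the 3 knockouts share control libraries, each comparison is given by its own values. In cytoplasmic RNA the genes called lower in all 3 were UPF2, EXOSC2, EXOSC3, EXOSC10, TIAL1, PABPC1 and PABPC4. With library totals alone EXOSC3, EXOSC10 and PABPC1 were still called lower in all 3, and UPF2, EXOSC2, TIAL1 and PABPC4 were not called in at least 1. EXOSC10, the nuclear exosome exonuclease, was at 173, 160.8, 170.7 and 168.6 CPM in the control. It was at 137.9 and 136.6 in the IGF2BP1, 124.2 and 127.6 in the IGF2BP2 and 114.2, 114.1, 118.6 and 124.5 in the IGF2BP3 knockout. All knockout libraries lay below all controls.

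The differences of EXOSC10 in cytoplasmic RNA were -0.28, -0.43 and -0.57 for the knockouts of IGF2BP1, IGF2BP2 and IGF2BP3. They were -0.30, -0.32 and -0.47 in total RNA and -0.37, -0.30 and -0.38 in nuclear RNA, all called. EXOSC2, an exosome cap subunit, differed by -0.31, -0.30 and -0.40 in the cytoplasm. EXOSC10 lies at chr1:11066618-11099881 on the minus strand.

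TIAL1 was at 160.4, 160.1, 137.5 and 135.3 CPM in the control, at 141.8 and 144.2 in the IGF2BP1 knockout and at 113.6 and 117.8 in the IGF2BP2 knockout. The IGF2BP3 knockout had 118.4 and 121.6 CPM in batches 3 and 4 and 142.6 and 138.1 in batch 5. Within batches the differences were -0.16, -0.24 and -0.19 (-0.09, -0.01 and 0.08 with library totals alone), but over all batches the groups overlap for the IGF2BP1 and IGF2BP3 knockouts. PABPC1 was at 1295, 1289, 1614 and 1617 CPM in the control, at 1133 and 1122, at 1328 and 1298, and at 1118, 1114, 892.8 and 904.1 in the 3 knockouts, with differences of -0.20, -0.30 and -0.53. The IGF2BP2 knockout lay within the control range of PABPC1 over all batches and below the controls of its own batches. DIS3L, a cytoplasmic exosome exonuclease, was called in no knockout against the control in any RNA kind in the main fits. With library totals alone it was called higher in the cytoplasm of the IGF2BP2 (0.17) and IGF2BP3 (0.15) knockouts. It was also called higher in batch 5 of the IGF2BP3 knockout alone against all controls.

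Paralogs often moved unequally within a clone. In the cytoplasm of the IGF2BP1 knockout XRN1 differed by 0.64 and XRN2 by -0.03, DCP1A by 0.56 and DCP1B by -0.12, and TIA1 by 0.39 and TIAL1 by -0.16. In that of the IGF2BP2 knockout PABPC4 differed by -0.90 and PABPC1 by -0.30, and CNOT7 by -0.46 and CNOT8, another deadenylase, by -0.09. UPF3B differed by 0.11 and UPF3A by 0.12, of which only the former was called. In that of the IGF2BP3 knockout DIS3 differed by 0.01, DIS3L by -0.12 and DIS3L2 by -0.50, G3BP1 by -0.54 and G3BP2 by -0.27, and TNRC6A by -0.40 and TNRC6B by 0.12. With library totals alone CNOT8 (0.13) turned in the IGF2BP2 knockout and DIS3L (0.15) and G3BP2 (0.002) in the IGF2BP3 knockout. These differences within pairs were not tested.

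The nuclear to cytoplasmic ratio of few genes changed in the IGF2BP1 knockout. SMG1 (-0.54) and XRN1 (-0.38) had a lower ratio, 2 of 48, where 4.11% of all genes were called (2.36% higher, 1.76% lower), and 1 was called without the identical library. In the IGF2BP2 knockout 12 were called, 5 higher and 7 lower, against 17.5% of all genes (7.77% higher, 9.71% lower). PAN2 had the largest change at -1.01, followed by UPF3A (-0.56) and SMG5 (-0.43). DDX6 (0.38), SMG1 (-0.37) and CNOT1 (0.36) came next. In the IGF2BP3 knockout 7 were called, 2 higher and 5 lower, against 10.9% of all genes (4.07% higher, 6.8% lower): PAN2 (-0.68), UPF3A (-0.50), AGO1 (-0.50), SMG5 (-0.44) and DICER1 (-0.33) were lower, and EDC4 (0.41) and UPF1 (0.39) higher. The level of nuclear RNAs in cytoplasmic libraries, given above, differed between these clones and the control, and its part in the ratios was not tested. Mitochondrial RNA in nuclear libraries, summed over 4 genes, was at 8021 to 9797 CPM in the control, 9193 to 10750 in the IGF2BP1, 6843 to 7165 in the IGF2BP2 and 13090 to 14210 in the IGF2BP3 knockout, and its part was not tested either. Under every alternative 0 of 2, 1 of 12 and 0 of 7 ratio calls were kept for the 3 knockouts.

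Another 72 genes of the same machines, listed by known role, were read in the same fits. In cytoplasmic RNA of the IGF2BP1 clone 41 were called, with 22 up and 19 down. The IGF2BP2 clone had 57 (18 up, 39 down) and the IGF2BP3 clone 56 (12 up, 44 down), and the medians were 0.04, -0.19 and -0.29. These are 56.9%, 79.2% and 77.8% of the list, against 44.4%, 64.2% and 64.7% of all genes. With library totals alone the directions were 35 up and 14 down, 31 up and 20 down, and 28 up and 25 down. That scaling also raised the median over all genes in these clones, as given above. Among those called in 1 direction in all 3 RNA kinds, LSM3, a subunit of the LSM ring, rose in the IGF2BP1 knockout (0.23), and FXR2, an RNA-binding relative of FMR1 (-0.81), and EIF4A3, the core of the exon junction complex (-0.69), fell. GSPT2, a termination factor that was already known to move here from earlier results of these data, had 0 reads in the IGF2BP1 knockout in all 3 RNA kinds, against 41 to 68 reads in cytoplasmic control libraries. It was at least 39.1-fold lower there, from a floor of 3 counts over the group.

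In the IGF2BP2 knockout SMG9, a partner of SMG1 (0.95), ZFP36, which marks AU-rich mRNAs for decay (0.78), and BTG1, which binds CCR4-NOT (0.68), rose. FMR1, a translational repressor (-1.41), CAPRIN1, a partner of G3BP1 (-0.92), and DCPS, which digests the released cap (-0.90), fell. FMR1 was at 63.14 and 65.13 CPM against 180.8, 173.5, 172.9 and 168 in the control.

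In the IGF2BP3 knockout NANOS1, a translational repressor (0.83), BTG3, a relative of BTG1 (0.66), and ZFP36 (0.58) rose. EXOSC5, an exosome ring subunit (-1.38), and XPO5, which exports microRNA precursors (-1.33), fell. EXOSC5 was at 20.21 and 19.81 CPM in batches 3 and 4 and at 35.08 and 34.16 in batch 5, all below 51.01, 54, 49.38 and 54.57 in the control. GSPT2 had 0 reads in total and nuclear RNA of this clone and 2 reads in its 4 cytoplasmic libraries together.

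A list of 21 genes whose transcripts are described as NMD targets, which includes UPF1 and SMG5 themselves, was read in cytoplasmic RNA. The IGF2BP1 clone had 10 called (5 up, 5 down), the IGF2BP2 clone all 21 (11 up, 10 down) and the IGF2BP3 clone 16 (5 up, 11 down). These are 47.6%, 100% and 76.2% of the list, against 44.4%, 64.2% and 64.7% of all genes. The medians were -0.02, 0.29 and -0.11, and 0.05, 0.52 and 0.16 with library totals alone, which raised those over all genes too. In the same order of clones they were 0.15, -0.10 and -0.39 in total RNA and 0.035, 0.095 and -0.29 in nuclear RNA. The identical library is included in these fits. In the IGF2BP2 knockout ATF3, a stress-induced transcription factor, was at 244 and 244.1 CPM against 39.07, 36.66, 37.64 and 37.37 in the control (2.70). GADD45A, a growth arrest gene (2.14), and DDIT3, a transcription factor of the stress response (2.14), also rose, and the splicing factors SRSF3 (-0.73) and TRA2B (-0.73) and the membrane protein gene TBL2 (-0.63) fell.

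In the IGF2BP3 knockout CDKN1A, an inhibitor of the cell cycle, was at 93.42, 99.48, 66.84 and 64.33 CPM against 27.28, 30.96, 29.4 and 32.36 in the control (1.64), with no overlap. DDIT3 (1.60) and GADD45B (1.15) rose, and the ribosomal protein gene RPL10A (-0.74), UPF1 (-0.71) and TBL2 (-0.71) fell. The list held genes that rose and genes that fell in each of the 3 clones.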

How the data were processed

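Poly(A) RNA of 32 libraries was measured. Per the labels' protocols, RNA was fractionated with a commercial kit, treated with DNase and made into stranded libraries read as pairs of 50 bases. The authors deposited raw read counts by gene, with 1 table per RNA kind, and these were the starting values. The submitters' processing notes name GRCh38, STAR, featureCounts and DESeq2 1.44.0 without giving their roles. The authors also deposited FPKM values, and their ratio to the counts followed the gene span with introns: for 100% of multi-exon genes tested in each library (at least 9212) the implied length over span lay within 2% of the median. FPKM served only in alternative fits and for naming levels.

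From the counts, edgeR 4.0.16 (R 4.3.3) gave quasi-likelihood tests with TMM normalization, the default filter by group (minimum count 10), knockout terms and labelled batch, at a Benjamini-Hochberg adjusted p under 0.05. Genes tested numbered 18212 in cytoplasmic, 18745 in total and 18732 in nuclear RNA. Changes of the nuclear to cytoplasmic ratio were interaction terms in a joint fit of both fractions of batches 1 to 4 (19310 genes), and the ratio in control cells came from control libraries alone (16246 genes). The biological coefficient of variation was 2.89% in cytoplasmic, 7.87% in total and 6.88% in nuclear RNA, so smaller differences could be called in the cytoplasm. The total and nuclear values come from fits that include the identical library. CPM are scaled by TMM. Designs were tested on simulated data.

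Replicate numbers map to the batch in the labels, which pairs the libraries. Correlations of deviations between same-batch libraries were -0.078 to 0.021. They show no shared deviation of same-batch libraries between batches 1 and 2 or 3 and 4, so the pairing rests on the labels alone. The batch term is the replicate block. Positions come from GENCODE 29 and start regions from RefSeq (GRCh38.p14). The members and lists were chosen with earlier results of these data known. Per-library values are given for up to 8 members with the largest cytoplasmic change per knockout, those called alike in the 3 knockouts, the 6 largest differences between the IGF2BP3 and IGF2BP2 knockouts, up to 6 ratio changes per knockout, the 5 most nuclear and 5 most cytoplasmic members, the 3 highest and 3 lowest levels, paralog pairs, and, of other lists, up to 3 genes per direction and knockout called alike in the 3 RNA kinds. G3BP1, AGO2 and EDC3 were added after their values were seen. Alternatives were other scalings and filters, DESeq2 1.42.0, limma 3.58.1 on log2(FPKM + 1) and log2(FPKM + 0.1), fits without the batch term, only the groups compared, and fits without each library. Fits with library totals in place of TMM factors, fits without batch 5, and fits of batch 5 or batches 3 and 4 alone against all controls, were chosen after seeing the data.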

Additional observations from a re-analysis of the deposited data

Results flagged for a closer look

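Of 192 groups of 4 libraries (48 genes in the control of each RNA kind and in the cytoplasmic IGF2BP3 knockout), 4 held a library far from the other libraries by Dixon's criterion at the 95% level, which chance alone exceeds in about 1 in 20 groups. DICER1 was at 162.8 CPM in replicate 2 of nuclear control RNA, against 134.8 to 139.1 in the others. DIS3L2 was at 28.54 CPM in replicate 4 of total control RNA, against 32.4 to 32.82. UPF3B was at 97.15 CPM in replicate 2 of total control RNA, against 92.08 to 92.72. XRN2 was at 172.5 CPM in replicate 3 of cytoplasmic control RNA, against 160.8 to 162.1, and the highest knockout value of XRN2 there was 161.1.

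The other results set apart are genes whose difference from the control was not the same in nuclear and cytoplasmic RNA, by the edgeR interaction test. Values are the change of the log2 nuclear to cytoplasmic ratio. In the IGF2BP1 knockout these were SMG1 at -0.54 and XRN1 at -0.38. In the IGF2BP2 knockout the ratio fell for PAN2 at -1.01, UPF3A at -0.56, SMG5 at -0.43, SMG1 at -0.37, DICER1 at -0.33, TIA1 at -0.32 and TIAL1 at -0.32. It rose there for DDX6 at 0.38, CNOT1 at 0.36, ELAVL1 at 0.36, LSM1 at 0.34 and G3BP2 at 0.32. In the IGF2BP3 knockout it fell for PAN2 at -0.68, UPF3A and AGO1 at -0.50, SMG5 at -0.44 and DICER1 at -0.33, and rose for EDC4 at 0.41 and UPF1 at 0.39. Under every alternative 0 of 2, 1 of 12 and 0 of 7 of these calls were kept for the 3 knockouts, and leaving out 1 library at a time gave 0 to 5, 2 to 13 and 1 to 9 calls. The cause of these changes was not tested.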

How the results depend on the processing

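Calls rest on batch, scaling and single libraries, and the causes were not tested. Nuclear and total RNA had a larger spread between libraries than cytoplasmic RNA, at similar depth, in fits that include the identical library. Without that library the calls in total RNA rose from 14 to 29 for the IGF2BP2 and from 22 to 33 for the IGF2BP3 knockout. They stayed at 12 for the IGF2BP1 knockout. The calls kept under every alternative were 14 of 28, 19 of 34 and 16 of 37 in cytoplasmic RNA for the IGF2BP1, IGF2BP2 and IGF2BP3 knockouts, 4 of 12, 5 of 14 and 12 of 22 in total RNA, 3 of 9, 7 of 28 and 16 of 31 in nuclear RNA, and 31 of 37 for nuclear against cytoplasmic control RNA. For the IGF2BP3 against the IGF2BP2 knockout they were 19 of 35, 5 of 21 and 8 of 19 in cytoplasmic, total and nuclear RNA, for batch 5 21 of 39, and for the ratio changes 0 of 2, 1 of 12 and 0 of 7.

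Without the batch term, which is the replicate block, the count of members called moved from 28 to 14 in the cytoplasm of the IGF2BP1 knockout and from 35 to 22 for the IGF2BP3 against the IGF2BP2 knockout there. The ratio counts moved to 4, 3 and 0 for the 3 knockouts. Without the block SMG1 turned to -0.14 in the IGF2BP2 knockout, CNOT2 to 0.006 and TNRC6B to -0.029 in the IGF2BP3 knockout, and EDC3 to -0.003 in nuclear RNA of the IGF2BP2 knockout. Between the IGF2BP3 and IGF2BP2 knockouts SMG5 (0.006), XRN2 (0.002), EXOSC2 (0.16), G3BP1 (0.19), DICER1 (0.075) and TNRC6A (0.065) turned.

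Upper quartile scaling turned UPF1 (0.034), CNOT2 (0.039), EDC3 (0.15) and TNRC6B (0.023) in the cytoplasm of the IGF2BP2 knockout and UPF3B (0.052), CNOT2 (0.048) and CNOT6 (0.012) in that of the IGF2BP3 knockout. For batch 5 against batches 3 and 4 it turned UPF3B (-0.001), SMG6 (-0.006), CNOT1 (-0.041), CNOT6 (-0.007), DCP2 (-0.01) and DDX6 (-0.014). Library totals with no scaling factor turned UPF1 (0.11), CNOT2 (0.11), CNOT4 (0.044), CNOT8 (0.13), DCP2 (0.035), EDC3 (0.22), XRN1 (0.053), DIS3L (0.17), DICER1 (0.13) and TNRC6B (0.097) in the cytoplasm of the IGF2BP2 knockout. In that of the IGF2BP3 knockout they turned UPF3B (0.15), CNOT2 (0.15), CNOT6 (0.11), CNOT6L (0.16), DCP1A (0.043), DCP1B (0.086), PATL1 (0.17), XRN1 (0.087), DIS3L (0.15), G3BP2 (0.002), TIAL1 (0.083) and DICER1 (0.044). For batch 5 against batches 3 and 4 they turned UPF3B (-0.041), SMG6 (-0.046), CNOT1 (-0.081), CNOT6 (-0.046), CNOT6L (-0.15), CNOT8 (-0.14), CNOT10 (-0.008), DCP1A (-0.038), DCP2 (-0.05) and DDX6 (-0.054). Batch 5 alone against all controls turned UPF3B (0.04), CNOT2 (0.17), CNOT7 (0.24), DIS3L (0.21), EXOSC3 (0.15), G3BP2 (0.023) and TNRC6B (-0.069).

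In total RNA, counts for the IGF2BP1 knockout were 5 and 6 with limma (pseudocounts 1 and 0.1) and 7 with only the groups compared. For the IGF2BP2 knockout they were 27 with only the groups compared and 29 without the identical library, and for the IGF2BP3 against the IGF2BP2 knockout 13 and 12 with limma and 33 with only the groups compared. In nuclear RNA the IGF2BP1 knockout had 5 without a filter, 4 and 4 with limma and 5 with only the groups compared. The IGF2BP2 knockout had 18 with DESeq2 and 12 and 12 with limma, and the direct comparison 11 and 11 with limma. Ratio counts were 4 with DESeq2-type size factors and 1 without a filter, with DESeq2 or without the identical library in the IGF2BP1 knockout, 3 with DESeq2 in the IGF2BP2 knockout and 4 with DESeq2 in the IGF2BP3 knockout.

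Leaving out 1 library at a time gave 20 to 28, 29 to 33 and 31 to 38 calls in the cytoplasm of the 3 knockouts, 27 to 35 for the direct comparison, 29 to 40 for batch 5 and 33 to 37 for the control ratio, with no shift over 1.5 times. In total RNA it gave 6 to 28, 5 to 30, 13 to 33 and 5 to 30. The IGF2BP1 count rose to 28 without control 1 or its own replicate 1, and fell to 7 without control 3 or 4 or either IGF2BP3 library and to 6 without either IGF2BP2 library. The IGF2BP2 count rose to 30 without control 1 or IGF2BP1 replicate 1 and to 29 without control 2 or IGF2BP1 replicate 2, and fell to 8 and 5 without its own libraries. The IGF2BP3 count fell to 13 without control 3 and to 14 without its replicate 1. The direct comparison fell to 8 and 5 without the IGF2BP2 libraries and to 7 without either IGF2BP3 library. In the IGF2BP1 knockout PAN3 ranged from -0.378 to 0.282, turning positive without control 2 or the identical library, and EXOSC2 from -0.269 to 0.26, turning positive without control 1 or IGF2BP1 replicate 1.

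In nuclear RNA the ranges were 5 to 11, 12 to 30, 17 to 33 and 11 to 22. The IGF2BP1 count was 5 without control 2 or 3 or its replicate 2. The IGF2BP2 count was 12 without control 3 or 4 or its replicate 2 and 17 without its replicate 1. The IGF2BP3 count was 20 without control 3 or its replicate 1 and 17 without control 4, and the direct comparison 11 without IGF2BP2 replicate 2. Ratio counts were 0 to 5, 2 to 13 and 1 to 9. They fell to 0 in the IGF2BP1 knockout without its batch 2 library or that of the control, to 2 without control 3 in the IGF2BP2 knockout and to 1 without the batch 3 library of the IGF2BP3 knockout, and rose to 5 for IGF2BP1 without either IGF2BP2 library.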
